A study of Mus musculus with 6 samples.

Results

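The genes described are 9 protein-coding genes of mouse chromosome 11 that lie within 5 Mb of Mir21, the gene of microRNA-21: Lpo, Cuedc1, Wfdc17, Wfdc18, Slfn2, Nle1, Cox11, Tubd1 and Stxbp4. They are 9 of the 17940 genes named on the array. They were chosen because their signal differed between colon mucosa of mice lacking miR-21 and of wild type mice, with chemokine genes and Vmp1 left out, so every difference between the groups below is a description and not a test. All 12 probes of these genes are reported, and 10 of them passed the filter on dim probes (detection p under 0.05 on at least 3 of the 6 arrays). The rule also offered AI451557 as an older symbol. The probe with that symbol carries an accession of Nlrc5, a chromosome 8 gene, and was left out; Wfdc17 was found by its Entrez ID, and Wfdc18 carries its older symbol Expi in the probe table.

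Total RNA of colon mucosa was labelled with Cy3 and measured on Illumina bead arrays, with 1 sample per array. The wild type group (WT, 3 samples) was C57BL/6 from Taconic, and the knockout group (KO, 3 samples) was miR-21-/- on a C57BL/6 background, provided by another laboratory. None of the samples has a treatment in the labels, and the knockout line is described there as free of spontaneous colitis. The labels give no age or sex, no account of how the deletion was made and no word on whether the replicates are separate animals, so the p-values below rest on the spread among 3 samples a group, which may be technical. Genotype, the source of the mice and chromosomal DNA inherited together with the targeted locus cannot be told apart in this design.

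MicroRNAs are short RNAs that lower the stability and translation of messenger RNAs that pair with their seed. The hairpin of miR-21 lies at the end of the Vmp1 gene. When an allele made in embryonic stem cells of another strain is crossed onto C57BL/6, the DNA on either side of it is the last to be replaced. The labels do not say which strain this allele was made in. The 9 genes have no common function. They encode a secreted peroxidase, a pair of small secreted proteins with a WAP domain, a regulator of T cell quiescence, a ubiquitin-binding protein, a ribosome assembly factor, a copper chaperone of the respiratory chain, a tubulin and a syntaxin-binding protein.

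The mature miR-21 sequence is shown because its gene is the reference point of the region, and the array had 0 probes for it, so its loss was not checked here. It lies on the minus strand at chr11:86584120-86584141 (GRCm38.p6, RefSeq), and its seed, bases 2 to 8, is in capitals.
mmu-miR-21a-5p: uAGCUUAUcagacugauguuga

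Cox11 and Stxbp4 start 75 bases apart on opposite strands. The interval between their starts is shown because these neighbours differed between the groups in opposite directions. It is chr11:90638109-90638183 (GRCm38.p6, plus strand, RefSeq), read from the side of Stxbp4 to that of Cox11, and the capitals mark TCTCGCGAGA, which equals its own reverse complement. It is the more common among promoters of 2 such 10-base runs in the interval; the other, CGAGATCTCG, overlaps it and is in 0.0396% of promoter windows.
Cox11-Stxbp4: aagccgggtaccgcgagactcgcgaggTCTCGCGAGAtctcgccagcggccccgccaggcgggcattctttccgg
This palindrome was taken from the interval, which lies in the promoter windows of both Cox11 and Stxbp4, so its presence in both was given. It was in none of the windows of the other 7 genes, and on either strand it was in 0.466% of all 32851 mouse promoter windows. A promoter window runs from 250 bases before to 50 bases after a start.

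Wfdc17 and Wfdc18 are adjacent genes on the plus strand, and their promoter windows are shown because both genes were lower in KO. Wfdc17 is at chr11:83703806-83704105 and Wfdc18 at chr11:83708754-83709053 (GRCm38.p6, RefSeq). Capitals mark runs of at least 10 bases that both windows hold.
Wfdc17 promoter: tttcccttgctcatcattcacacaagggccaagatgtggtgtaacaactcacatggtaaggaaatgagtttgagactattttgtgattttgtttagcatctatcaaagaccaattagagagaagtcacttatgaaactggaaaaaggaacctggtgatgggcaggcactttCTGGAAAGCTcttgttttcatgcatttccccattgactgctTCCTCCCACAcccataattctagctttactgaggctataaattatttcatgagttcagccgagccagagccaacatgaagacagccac
Wfdc18 promoter: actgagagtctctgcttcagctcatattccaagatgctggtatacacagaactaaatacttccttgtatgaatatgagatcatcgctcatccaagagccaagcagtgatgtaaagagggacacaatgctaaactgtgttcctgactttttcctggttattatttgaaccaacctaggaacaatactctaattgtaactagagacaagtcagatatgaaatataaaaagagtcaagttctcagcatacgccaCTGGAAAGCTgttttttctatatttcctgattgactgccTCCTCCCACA
The first shared run, CTGGAAAGCT, begins at base -79 of Wfdc17 and at base 1 of Wfdc18, with the base of the annotated start counted as 0. The second, TCCTCCCACA, begins at -38 and at 40, so the runs lie in the same order in both windows but at other distances from the annotated start. Both windows also hold TATAAA on one of the strands, which 13.6% of all windows hold. The windows of the 9 genes fell apart in their CG dinucleotides: Lpo, Wfdc17, Wfdc18 and Slfn2 had 1 to 2 per 300 bases, and Nle1, Cox11, Tubd1 and Stxbp4 had 21 to 27. Cuedc1 has 2 windows, with 22 and 6. Tubd1 starts head to head with Rps6kb1, with 183 bases between the starts. The matches describe these letters only.

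Values are normalized log2 intensities, and a difference is KO minus WT on that scale. Array medians were 97 to 115 in intensity before normalization. The share of probes detected was 50.4 to 52.3 percent on the WT arrays and 53.9 to 54.6 percent on the KO arrays. Correlations between arrays were 0.981 to 0.99 within a group and 0.956 to 0.972 between groups. Over all genes, 15.7 percent passed the threshold (limma, Benjamini-Hochberg adjusted p under 0.05), 8.04 percent higher and 7.63 percent lower in KO. Of all genes tested, 37.5 percent had groups that did not overlap, and the same held for the main probe of all 9 genes described, which were picked for their difference. Of the 9, 4 were higher and 5 were lower in KO, and the median size of the difference was 1.04. The number of arrays limits the precision: with 3 against 3, the smallest permutation p is 0.1. Each probe value on an array came from 23 to 56 beads, with a standard error over beads of 1.82 to 5.2 percent.

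**Figure D1:**
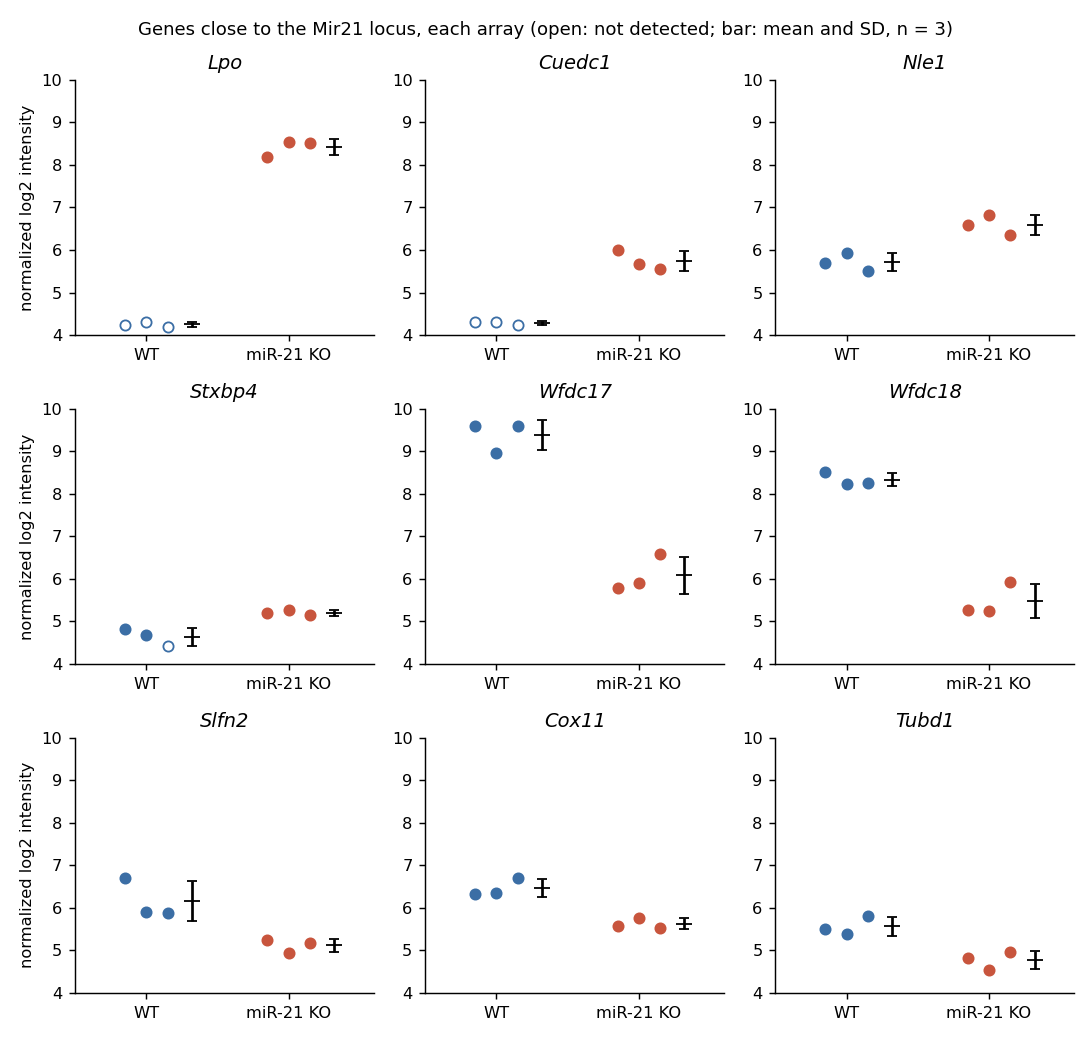
Normalized log2 intensity (vertical axis) of the main probe of each of the 9 genes on each of the 6 arrays, WT in blue and KO in red, open where the probe was not detected, with the mean and SD of each group (n = 3) as a bar beside the points. The 3 WT and the 3 KO points do not overlap for any of the 9 genes, and the distance between the groups runs from 0.56 for Stxbp4 to 4.17 for Lpo.

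Lpo encodes lactoperoxidase, a secreted haem enzyme that uses hydrogen peroxide to make antibacterial oxidants in milk, saliva and airway fluid. Its normalized level was 4.24, 4.31 and 4.20 in WT and 8.19, 8.54 and 8.52 in KO. No WT array and all 3 KO arrays detected it, so the WT values are at the background and the KO values stand well clear of it. The means were 4.25 ± 0.06 (SD, n = 3) and 8.42 ± 0.19 (SD, n = 3), a difference of 4.17. Because WT was at the background the ratio is a bound, set against the lowest level of detected probes, and Lpo was at least 14.0-fold higher in KO. The groups were also apart in the deposited intensities, which were 99.5, 105.7 and 88.8 in WT and 417.1, 504.3 and 347.4 in KO. The gap was smaller there: without background correction the log2 difference was 1.97. The size of the bound therefore depends on that correction.

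The nearest peroxidase genes of the same family lie beside Lpo. Mpo, the myeloperoxidase of neutrophils, has 3 probes, and Epx, the eosinophil peroxidase, has 1. None of these 4 probes was detected on more than 1 array, and their differences ran from -0.06 to 0.23. The nearest tested genes on either side of Lpo, Tspoap1 and Dynll2, differed by -0.26 and 0.04, and neither passed the threshold. Of 8 goblet cell markers 6 were tested, and 1 of them, the anion channel gene Best2, was higher. The summed linear level of the 6 was 45975 to 49790 in WT and 54738 to 57947 in KO, with Muc2 and Fcgbp not tested. That sum rests mostly on Zg16, Clca1 and Tff3, the brightest of them, none of which passed. The differences were 2.64 for Best2, 0.39 for Clca1, 0.14 for Zg16, 0.02 for Tff3, -0.06 for Spdef and -0.48 for Agr2. Their median was 0.08. Of 10 colon epithelium markers 8 were tested. None was higher and 2 were lower, Krt20 (-0.63) and Vil1 (-1.15). The median difference was -0.03. Their summed linear level was 27521 to 29279 in WT and 24927 to 28679 in KO, with Epcam and Car1 not tested. With array weights or no background correction 1 was higher. Markers of fat and muscle were counted as well. All 6 tested of 8 adipocyte markers were higher, with a median difference of 2.98, and Cfd, the adipsin gene, was higher by 4.32 ± 1.18 (SE). Their summed linear level was 2977, 931 and 197 in WT and 8493, 6047 and 18566 in KO, with Plin1 and Fabp4 not tested, and 2 to 6 were higher under the alternatives, 2 of them with the 4 brighter arrays or with no filter on dim probes. Of 8 smooth muscle markers, all tested, 1 was higher (Cnn1) and 7 had an unadjusted p under 0.05, with a median difference of 0.75 and sums of 21461 to 40725 in WT and 38153 to 54277 in KO. Without WT replicate 2 the number higher was 6, and with array weights it was 7. It was 0 without WT replicate 1 or KO replicate 2. It was also 0 with median scaling, no background correction or no filter on dim probes. The part of epithelium, goblet cells, fat or muscle in the levels of Lpo, Cuedc1, Nle1 and Stxbp4, the genes higher in KO, was not tested. In RNA of whole mucosa, fewer cells of a type and less RNA per cell cannot be told apart.

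Cuedc1 encodes a protein with a CUE domain, a fold that binds ubiquitin. Its level was 4.32, 4.32 and 4.24 in WT and 5.99, 5.67 and 5.54 in KO. Again no WT array and all 3 KO arrays detected it, and all KO values lay above all WT values. The means were 4.29 ± 0.04 and 5.74 ± 0.23 (SD, n = 3 each), a difference of 1.44, and Cuedc1 was at least 2.18-fold higher in KO. As for Lpo, the size of this bound depends on the background correction. Without that correction the log2 difference was 0.40. In the deposited intensities, the lowest KO array, 114, was close to the highest WT array, 105.9. Its tested neighbours Vezf1 and Mrps23 differed by 0.61 and -0.52, in opposite directions.

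Wfdc17 and Wfdc18 encode small secreted proteins with a WAP domain, a fold shared by several inhibitors of proteases. Wfdc17 is known from activated macrophages and microglia of the mouse, and Wfdc18 from the mouse mammary gland. Wfdc17 was at 9.60, 8.97 and 9.59 in WT and at 5.78, 5.90 and 6.58 in KO. It was detected on all 6 arrays, and the highest KO value was well under the lowest WT value. The means were 9.38 ± 0.36 and 6.08 ± 0.43 (SD, n = 3 each), so Wfdc17 was 9.85-fold lower in KO, with a difference of -3.30. Wfdc18 was at 8.50, 8.23 and 8.26 in WT and at 5.26, 5.26 and 5.93 in KO. It was 7.21-fold lower, from 8.33 ± 0.15 to 5.48 ± 0.39 (SD, n = 3 each), a difference of -2.85. For both genes KO replicate 3 was the highest of the KO arrays, and this was 1 of the dimmer arrays before normalization. In the deposited intensities this array did not stand out, with 149.9 against 145.6 and 149.5 for Wfdc17 and 124.7 against 126.2 and 123.4 for Wfdc18.

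The tested neighbour on the chemokine side of Wfdc17 was Ccl4, at -0.76. Of 12 macrophage and monocyte markers 11 were tested, and 2 of them, Mrc1 and Tyrobp, were lower and 0 higher. Their summed linear level was 11442, 5738 and 9212 in WT and 4179, 4689 and 6030 in KO, so the groups overlapped. The brightest of the 11 was Lyz2, which differed by -1.27 and did not pass. The median difference of the 11 was -0.23, and Cd14, C1qb and Cd68 differed by 0.19, 0.12 and 0.00. No marker was lower when KO replicate 2 was left out or with no filter on dim probes, and 4 were with array weights. Of 8 neutrophil markers 3 were tested and 0 passed with limma, while 3 had an unadjusted p under 0.05. Without WT replicate 1, with the replicate block or with array weights 2 were lower, and 1 was without KO replicate 3. Their summed linear level was 212, 842 and 348 in WT and 83.0, 168 and 177 in KO; Ly6g, Csf3r, Cxcr2, Elane and Camp were not tested. The part of these cells in the level of Wfdc17 was not tested.

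Slfn2, a schlafen family gene needed for the quiescence of mouse T cells and monocytes, was at 6.70, 5.90 and 5.87 in WT and at 5.25, 4.95 and 5.17 in KO. WT replicate 1 stood above the other WT arrays, and no KO value reached the lowest WT value. The means were 6.16 ± 0.47 and 5.12 ± 0.16 (SD, n = 3 each), 2.05-fold lower in KO with a difference of -1.04. In the deposited intensities the groups overlapped, with KO replicate 1 at 125.9 and the dim WT replicate 3 at 115.6. Markers of lymphocytes were lower in KO as well, and WT replicate 1 was highest for these too. Of 12 T and NK cell markers 8 were tested, 5 were lower and 0 higher, and their summed linear level was 1227, 566 and 795 in WT and 315, 295 and 429 in KO. Of 8 B cell markers 5 were tested and all 5 were lower, with sums of 2925, 626 and 1129 in WT and 210, 205 and 261 in KO. Without KO replicate 2 the calls were 2 of 8 and 2 of 5. With no background correction they were 2 of 8 and 1 of 5, and with no filter on dim probes 3 of 8 and 2 of 5. Leaving out WT replicate 3 or KO replicate 1 gave 2 of 8 and 3 of 5, and leaving out WT replicate 1 gave 3 of 8 and 4 of 5. The markers not tested were Cd4, Cd8a, Trac and Gzma of the first list and Cd79a, Ms4a1 and Pax5 of the second. The part of these cells in the level of Slfn2 was not tested.

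The other schlafen genes lie next to Slfn2, and Slfn1, Slfn3, Slfn4, Slfn5, Slfn8 and Slfn9 all had probes. Each of these probes was detected on at most 1 of the 6 arrays, with differences from -0.32 to 0.05, so a difference in them was not detectable at this signal. Schlafen genes are similar in sequence, and whether the Slfn2 probe also binds RNA of its relatives was not tested. The tested neighbours Unc45b and Ap2b1 differed by -0.15 and 0.25.

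Nle1 encodes notchless, a factor that works with the ATPase Mdn1 in the assembly of the large ribosomal subunit. Its main probe was at 5.70, 5.94 and 5.51 in WT and at 6.59, 6.81 and 6.34 in KO. All KO values were above all WT values, and the means were 5.72 ± 0.21 and 6.58 ± 0.23 (SD, n = 3 each), 1.82-fold higher with a difference of 0.86. In the deposited intensities the groups overlapped, since the dim KO replicate 3, at 139.6, lay under WT replicate 2, at 159.9. The other Nle1 probe was detected on 0 arrays, its group means were 4.23 and 4.35, and its groups overlapped. The tested neighbours Rad51d and Unc45b differed by -0.04 and -0.15.

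Cox11 encodes a mitochondrial protein that delivers copper to cytochrome c oxidase. It was at 6.32, 6.35 and 6.71 in WT and at 5.57, 5.77 and 5.53 in KO, with no overlap. The means were 6.46 ± 0.22 and 5.62 ± 0.13 (SD, n = 3 each), 1.79-fold lower with a difference of -0.84. Before normalization the groups overlapped for Cox11, with KO replicate 2 at 143.6 and the dim WT replicate 3 at 143. Stxbp4, its head-to-head neighbour, encodes a protein that binds syntaxin 4 and is known from insulin-regulated transport of glucose transporter vesicles. Stxbp4 was at 4.82, 4.68 and 4.42 in WT and at 5.19, 5.26 and 5.14 in KO. It was the dimmest of the 9 genes that WT arrays detected, with 2 WT arrays and all 3 KO arrays above background. The means were 4.64 ± 0.21 and 5.20 ± 0.06 (SD, n = 3 each), 1.48-fold higher with a difference of 0.56. Before normalization KO replicate 3, at 105.5, lay under WT replicates 1 and 2, at 114.4 and 115.2. The 2 genes whose starts are 75 bases apart differed by -0.84 and 0.56. The other Stxbp4 probe was detected on 1 KO array and no WT array, with group means of 4.40 and 4.44 that overlapped. The next tested gene beyond Stxbp4, Mmd, differed by 0.55.

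Tubd1 encodes delta-tubulin, which is needed for the triplet microtubules of centrioles. Its main probe was at 5.50, 5.37 and 5.81 in WT and at 4.83, 4.55 and 4.97 in KO. The second probe was at 5.31, 5.27 and 5.76 in WT and at 4.71, 4.71 and 4.78 in KO. Neither probe overlapped between the groups, and both were detected on all 6 arrays. The main probe was near the background on KO replicate 2, with a detection p of 0.0401. In the deposited intensities its WT replicate 3, at 114, was close to its KO replicate 1, at 113.4. Without background correction its log2 difference was -0.21. The main probe went from 5.56 ± 0.22 to 4.78 ± 0.22 (SD, n = 3 each), 1.72-fold lower with a difference of -0.78, and the second probe was 1.64-fold lower with a difference of -0.71. Tubd1 is the only one of the 9 genes with 2 tested probes. It is also the closest to Mir21, with Vmp1 the only tested gene between them. Vmp1 differed by -0.55, and Rps6kb1, on the other side of Tubd1, by -0.14.

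**Figure D2:**
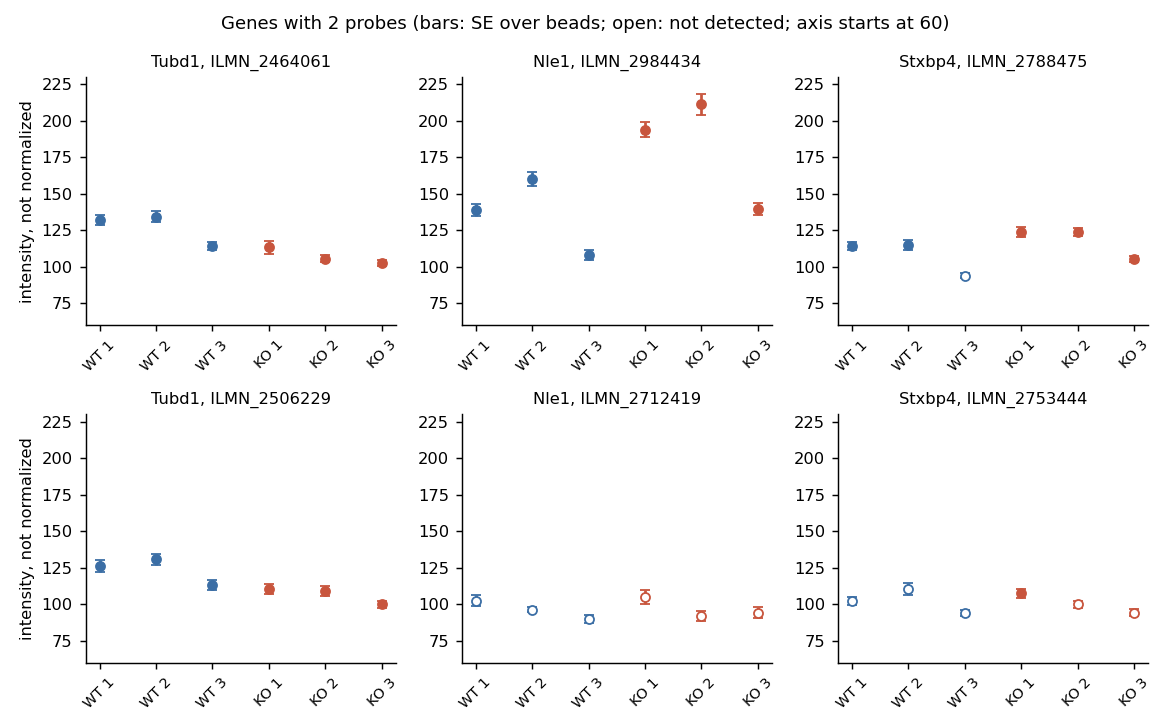
Deposited intensity before normalization (vertical axis, linear, not starting at 0) with its standard error over beads on each of the 6 arrays, for both probes of Tubd1, Nle1 and Stxbp4; WT is blue, KO is red and open points were not detected. Both Tubd1 probes are lower on the KO arrays, though WT replicate 3 and KO replicate 1 are close (114 and 113.4 for the main probe). The second probes of Nle1 (90.1 to 105) and Stxbp4 (94 to 110.3) stay low on all 6 arrays.

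In the order of tested genes along chromosome 11, counted from Mir21, Nle1 was at position -33, Slfn2 at -31, Wfdc17 at -23, Wfdc18 at -22 and Tubd1 at -2. On the other side, Lpo was at 11, Cuedc1 at 15, Stxbp4 at 23 and Cox11 at 24. Genes higher and lower in KO lay on both sides. The 5 Mb on each side of Mir21 hold 251 annotated genes, of which 109 had a probe and 63 were tested, 39 before and 24 after Mir21. Of these 63, 17 passed the threshold, which is 27 percent against 15.7 percent of all genes, a count from which nothing is read because the 9 genes were chosen from it. Besides the 9, the 17 hold Vmp1, the chemokine genes Ccl5 (-1.33) and Ccl9 (-0.93), and 5 genes that the list does not hold: Ddx52 (-0.56), Gm11437 (-1.02), Car4 (-0.56), Supt4a (-0.70) and Mrps23 (-0.52). Leaving out KO replicate 2 gave 7, leaving out WT replicate 3 gave 8, and leaving out either WT replicate 1 or KO replicate 1 gave 9. Median scaling gave 7. Of the 63 genes, 39.7 percent had groups that did not overlap, against 37.5 percent of all genes. The median size of the difference was 0.25 in the region, with the 9 genes included, and 0.26 over all genes. A median does not respond to a minority of genes, so nothing is read from this either.

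Of the 9 genes, the closest to the threshold were Stxbp4, with a limma adjusted p of 0.0360, and Tubd1, with 0.0198. Mrps23 and Car4, which the list does not hold, were closer still (limma adjusted p = 0.0413 and 0.0406). Just outside it in this region were Vezf1, which encodes a zinc finger protein of endothelial cells, with a difference of 0.61 (limma adjusted p = 0.0503), and Mmd, a gene linked to the differentiation of monocytes, with 0.55 (limma adjusted p = 0.0724). Genes on both sides of the threshold had differences of similar size.

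**Figure D3:**
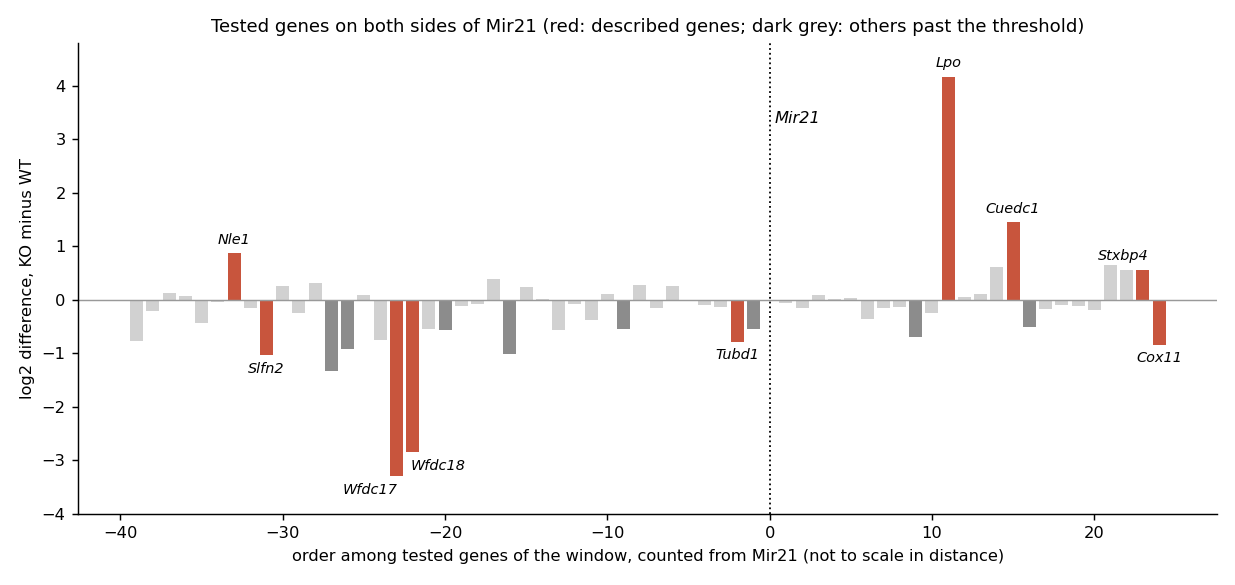
Difference KO minus WT in normalized log2 intensity (vertical axis) of the 63 tested genes within 5 Mb of Mir21, in their order along chromosome 11 counted from Mir21 (horizontal axis, gene ranks and not distance). The median size of the difference over the 63 genes, the 9 included, was 0.25, with Lpo at 4.17 and Wfdc17 at -3.30 as the extremes.

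Along the whole of chromosome 11, 848 genes were tested and 139 passed the threshold, 16.4 percent. In steps of 25 tested genes, the step just before Mir21 held 7 that passed and the step just after it 6, of which 3 and 4 are among the 9 genes chosen for passing, so nothing is read from these counts. The 31 other full steps held 0 to 9, with a median of 4. Among the 20 chromosomes with at least 100 tested genes, the share that passed was 11.8 to 19.5 percent, and chromosome 11 was at rank 10.

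Genes related to the 9 by family or process were taken from lists made from general knowledge, and those outside the 5 Mb region were counted. Of 79 tested, 13 passed (16.5 percent, against 15.7 percent of all genes), 8 higher and 5 lower. Leaving out 1 array changed the count to 5 (WT replicate 1), 8 (WT replicate 3), 6 (KO replicate 1) or 2 (KO replicate 2). It was 1 with median scaling and 25 with array weights. Adjusted p-values in the next paragraphs are from limma over all tested probes, and errors are standard errors.

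Beside Lpo, 11 peroxide-handling enzymes were tested, with a median difference of 0.07. Cat, the catalase of peroxisomes, rose by 1.38 ± 0.13 (limma adjusted p = 0.000741), a call that held under all 15 alternatives. Prdx6, a peroxiredoxin, fell by 1.13 ± 0.22 (limma adjusted p = 0.0134). Its call was lost with median scaling, without KO replicate 2 and with the 4 brighter arrays. Beside Wfdc17 and Wfdc18, 3 WAP domain genes were tested. Wfdc1 rose by 0.83 ± 0.19 (limma adjusted p = 0.0235), a call lost with median scaling or without WT replicate 1, KO replicate 1 or KO replicate 2. It was also lost with no filter on dim probes and with the 4 brighter arrays. Slpi, a secreted inhibitor of leukocyte proteases, differed by -0.22 ± 0.28, and Wfdc2 by 0.52 ± 0.16 (limma adjusted p = 0.0611). No schlafen gene outside the region was tested.

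Beside Cuedc1, 9 genes of CUE domain and membrane ubiquitin proteins were tested, and 2 passed, both lower. Tab3, an adaptor of the kinase TAK1, fell by 0.76 ± 0.17 (limma adjusted p = 0.0196). Smarcad1, a chromatin remodeller, fell by 0.59 ± 0.13 (limma adjusted p = 0.0223). Both calls were lost with median scaling and without WT replicate 1, KO replicate 1 or KO replicate 2. That of Smarcad1 was also lost without WT replicate 3 and with the 4 brighter arrays. Cuedc2, the closest relative by name, differed by 0.38 ± 0.17 (limma adjusted p = 0.169). Beside Nle1, 0 of 15 ribosome assembly genes passed with limma, with a median difference of -0.01, and 2 had an unadjusted p under 0.05; 1 passed, as lower, with cyclic loess, with array weights, with no background correction and with no filter on dim probes.

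Beside Cox11, which was lower, 14 other genes of cytochrome c oxidase assembly were tested, and 4 were higher and 0 lower. Cox18, which inserts a subunit into the membrane, rose by 0.83 ± 0.14 (limma adjusted p = 0.00821), and Coa7 rose by 0.78 ± 0.16 (limma adjusted p = 0.0169). Cox10 and Cox15, enzymes that make the haem of the complex, rose by 0.70 ± 0.16 and 0.66 ± 0.16 (limma adjusted p = 0.0253 and 0.0280). The median of the 14 was 0.16. With median scaling 0 of the 14 passed. Leaving out KO replicate 2 left 1, 2 were left without KO replicate 1 or either of WT replicates 1 and 3, and leaving out KO replicate 3 gave 3 higher and 1 lower.

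**Figure D4:**
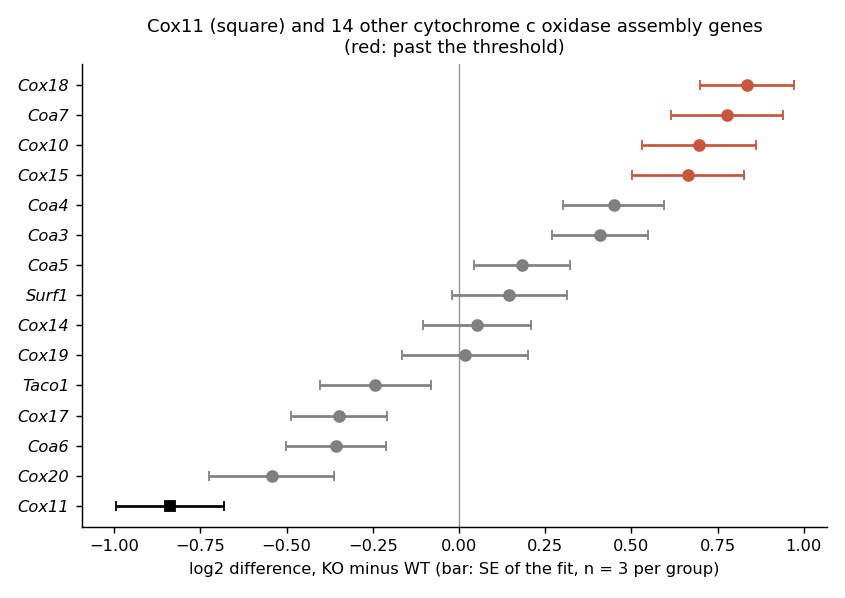
Difference KO minus WT in normalized log2 intensity with its standard error (horizontal axis) for Cox11 and the 14 tested cytochrome c oxidase assembly genes outside the region. Cox11 is at -0.84, while Cox18, Coa7, Cox10 and Cox15 are at 0.66 to 0.83.

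Beside Tubd1, 14 tubulin and centriole genes were tested, and 2 rose. Tuba1b, an alpha-tubulin, rose by 0.60 ± 0.14 (limma adjusted p = 0.0256), and Tubb5, a beta-tubulin, rose by 0.46 ± 0.13 (limma adjusted p = 0.0433). The gamma- and epsilon-tubulin genes Tubg1 and Tube1 differed by 0.19 and 0.36 and did not pass. Beside Stxbp4, 13 genes of syntaxin-binding proteins, SNAREs and the glucose transporter Slc2a4 were tested, and 2 fell. Stx3, a syntaxin of the apical membrane, fell by 0.77 ± 0.15 (limma adjusted p = 0.0134), and Vamp8, a vesicle SNARE, fell by 0.46 ± 0.13 (limma adjusted p = 0.0444). Stxbp2 and Slc2a4 differed by 0.43 and 0.38 and did not pass. The calls of Tubb5 and Vamp8 were lost when any 1 of the 6 arrays was left out, that of Tuba1b without WT replicate 1, WT replicate 2, KO replicate 1 or KO replicate 2, and that of Stx3 without KO replicate 2. All 4 were lost with median scaling. With the 4 brighter arrays those of Stx3, Tubb5 and Vamp8 were lost. The calls of Tubb5 and Vamp8 were also lost with the replicate block, and that of Vamp8 with the authors' deposited log2 values.

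By Pearson correlation of levels over the 6 arrays, the gene outside the region most like Lpo was St6galnac1 (r = 0.9991), a sialyltransferase gene, that most like Cuedc1 was Nr5a2 (r = 0.997), a nuclear receptor gene, and that most like Wfdc17 was Bid (r = 0.9991). Wfdc18 was most like Psma7 (0.9988), Slfn2 most like 1700123O20Rik (0.9944) and Nle1 most like Stim1 (0.9972). Cox11 was most like Abi3 (0.9981) and Tubd1 most like C1galt1 (0.9959). These values describe 6 points that fall into 2 groups, and 106 to 304 genes had an r over 0.95 with each of the 9.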

How the data were processed

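The members and gene lists were chosen with earlier results of these data known. The authors deposited, for 25697 probes on every array, the linear intensity averaged over beads, a p-value of detection, the standard error over beads and how many beads there were (other units), per the file headers. The authors' deposited log2 values, normalized between arrays, cover 18010 of them and correlated with the values computed here at r of at least 0.9999; on the 12 probes of the 9 genes they differed by at most 0.0833. Of tools, the submitters' processing notes name just limma. Intensities were normalized here with neqc (limma 3.58.1 under R 4.3.3; statmod 1.5.0), which runs normexp with the negative controls inferred from the detection p-values, quantile, offset 16, log2. The 13737 probes detected on at least 3 of 6 arrays (10348 genes) were fitted with lmFit and eBayes, for KO minus WT; p-values were two-sided and adjusted by Benjamini-Hochberg, with a threshold of 0.05. A gene is represented by its probe with the highest mean. Symbols came from a RefSeq table (GRCm38.p6): 23788 probes matched by Entrez ID and 1148 by accession, and 761 kept the file's symbol. The files name no build, so that table, on its own assembly, served only for gene order and for which genes lie within 5 Mb of Mir21; sequences carry their own RefSeq coordinates. Summed linear levels are sums of 2 to the power of the normalized log2 value over a list's tested genes. The genes named were the 9, the genes either side of the threshold, tested neighbours, related genes that passed with the closest paralogs, and the most alike gene of each; the 5 genes that the list does not hold were named after their values were seen. A few genes that this rule names are not reported here. The fit was checked on simulated data.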

Additional observations from a re-analysis of the deposited data

How the results depend on the processing

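The 9 genes kept the direction of their difference in all 132 values from 15 alternatives. Nothing is read from this, because the genes were picked for their difference and their groups did not overlap. Settings that reuse the same normalized values, such as leaving out an array, could not reverse a direction. In size, 10 values moved by at least 1 SD, 9 of them without background correction. The number of the 9 past the threshold, from which nothing is read, was 4 with median scaling, 6 without background correction, 8 with no filter on dim probes and 5 with the 4 brighter arrays. Leaving out 1 array gave 5 (KO replicate 2), 6 (WT replicate 3), 7 (WT replicate 1 or KO replicate 1) or 8. Without background correction the median size of the difference went from 1.04 to 0.37, and leaving out 1 array gave 0.91 to 1.18. With probes detected on all 6 arrays, only 6 of the 9 genes had a value. The number of probes past the threshold was 2071 (1034 higher, 1037 lower). It was 536 with median scaling (193 higher, 343 lower), 3772 with array weights and 460 to 2116 with 1 array left out. The 4 lowest came from leaving out KO replicate 2 (460), WT replicate 1 (895), WT replicate 3 (902) or KO replicate 1 (920). With the 4 brighter arrays, an alternative chosen after seeing the data, it was 839. Of the related genes, 13 passed, 1 with median scaling, 25 with array weights, 7 with the 4 brighter arrays and 2 to 14 with 1 array left out. The causes were not tested. Same-numbered samples of the 2 groups deviated together with r of 0.00686, 0.155 and 0.0558, so the numbers were not taken as pairs. With the replicate block 2154 probes and 11 related genes passed. The median size of the member difference was 1.04 there too, but a block cannot change a difference of means in this balanced design. Dim probes are limited by background: Lpo and Cuedc1 have only a bound in WT.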
